A study of Mus musculus with 12 samples.

Results

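The genes described here encode the TGF-beta ligands, their receptors and the proteins that store, limit or report TGF-beta signals. They were taken by symbol, 10 of the 26264 gene symbols in the count tables: the ligands Tgfb1, Tgfb2 and Tgfb3, the receptors Tgfbr1, Tgfbr2 and Tgfbr3, the latent binding protein Ltbp1, the intracellular inhibitors Smad7 and Skil, and the target gene Tgfbi. All 10 were detected in every library and passed the filter on low counts. TGF-beta is secreted in a latent form that LTBP proteins tether to the extracellular matrix. Once released, the ligand brings the type II receptor TGFBR2 and the type I receptor TGFBR1 together, with TGFBR3 (betaglycan) as a co-receptor, and the type I receptor phosphorylates SMAD2 and SMAD3. In the glomerulus the pathway is known for driving matrix production by mesangial cells and injury of podocytes, the cells that cover the filtering capillaries.

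Glomeruli were isolated from male, 8-week-old mice of closely related substrains of the albino BALB/c mouse, Ajcl (in full, BALB/cAjcl) and ByJcl (in full, BALB/cByJcl). Each substrain gave 3 libraries from untreated mice (baseline) and 3 from mice at Day 5 after a single intravenous dose of adriamycin (ADR) at 10 mg/kg. ADR, or doxorubicin, is an anthracycline that injures podocytes and is used in mice as a model of nephrotic kidney disease. The Day 5 animals were thus compared with untreated and not with saline-injected animals, no transgene or deletion was involved, and the baseline and Day 5 counts lie in separate tables, so treatment, time and table cannot be told apart.

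Total counts ranged from 42198416 to 54687045 per library, so that precision was limited by the number of libraries. Podocyte markers were abundant in every library, with 12 summed markers at 10450 CPM (counts scaled to the normalized size of the library) or more, and the 7 lymphocyte markers stayed below 1 CPM each. Ajcl Day 5 replicate 1 had the most tubule RNA, with 8 proximal tubule markers summing to 7989 CPM against 557 to 5378 CPM in the others. Among the other Day 5 libraries, 7 distal nephron and collecting duct markers summed to 812 to 1099 CPM in Ajcl and 97.1 to 510 CPM in ByJcl. Their median log2 fold change was -1.35, with 0 of 7 called by edgeR and 1 by DESeq2. At baseline they summed to 523 to 1663 CPM in Ajcl and 136 to 536 CPM in ByJcl (median -1.34, 0 of 7 called). Averaged over both times, edgeR called 1 of the 7 lower in ByJcl. The 8 proximal tubule markers had medians of -0.75 at baseline and -0.92 at Day 5, with 0 called. The part of these differences in the substrain comparisons was not tested. The study left Ajcl Day 5 replicate 1 out for reduced glomerular purity, and unless stated otherwise the values below come from the other 11 libraries. At Day 5 the podocyte markers summed to 10450 to 14610 CPM in ByJcl, below the baseline range of 20580 to 23790 CPM. In Ajcl they summed to 13240 to 17780 CPM, a range that overlapped that of baseline, 16720 to 22450 CPM. The part of this shift in the results below was not tested, and in such bulk RNA fewer cells of a type and less RNA per cell cannot be told apart.

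In brief, 11 of 20 genes known to be induced by TGF-beta in culture rose at Day 5 in ByJcl, where 5.75% of all genes rose. None of the 10 genes passed an adjusted p of 0.05 in either substrain or between substrains (edgeR quasi-likelihood test, Benjamini-Hochberg adjustment over 17002 genes). In these comparisons 0.159% to 10.6% of all genes passed, and a missed threshold does not show that a level was unchanged. Tgfbi passed when the Day 5 effect was averaged over both substrains, where it fell to 0.467 of its baseline level. This comparison was added after the Tgfbi values were seen, and 10.4% of all genes were called in it. Within Ajcl alone DESeq2 called Tgfbi and edgeR did not. Tgfb3, Ltbp1 and Tgfb1 had higher means at Day 5 in ByJcl, by 1.33-fold, 1.68-fold and 1.26-fold. None of them passed in edgeR, and DESeq2 called Tgfb3 and Ltbp1. The plot of each library shows these values beside those of the receptors.

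**Figure D1:**
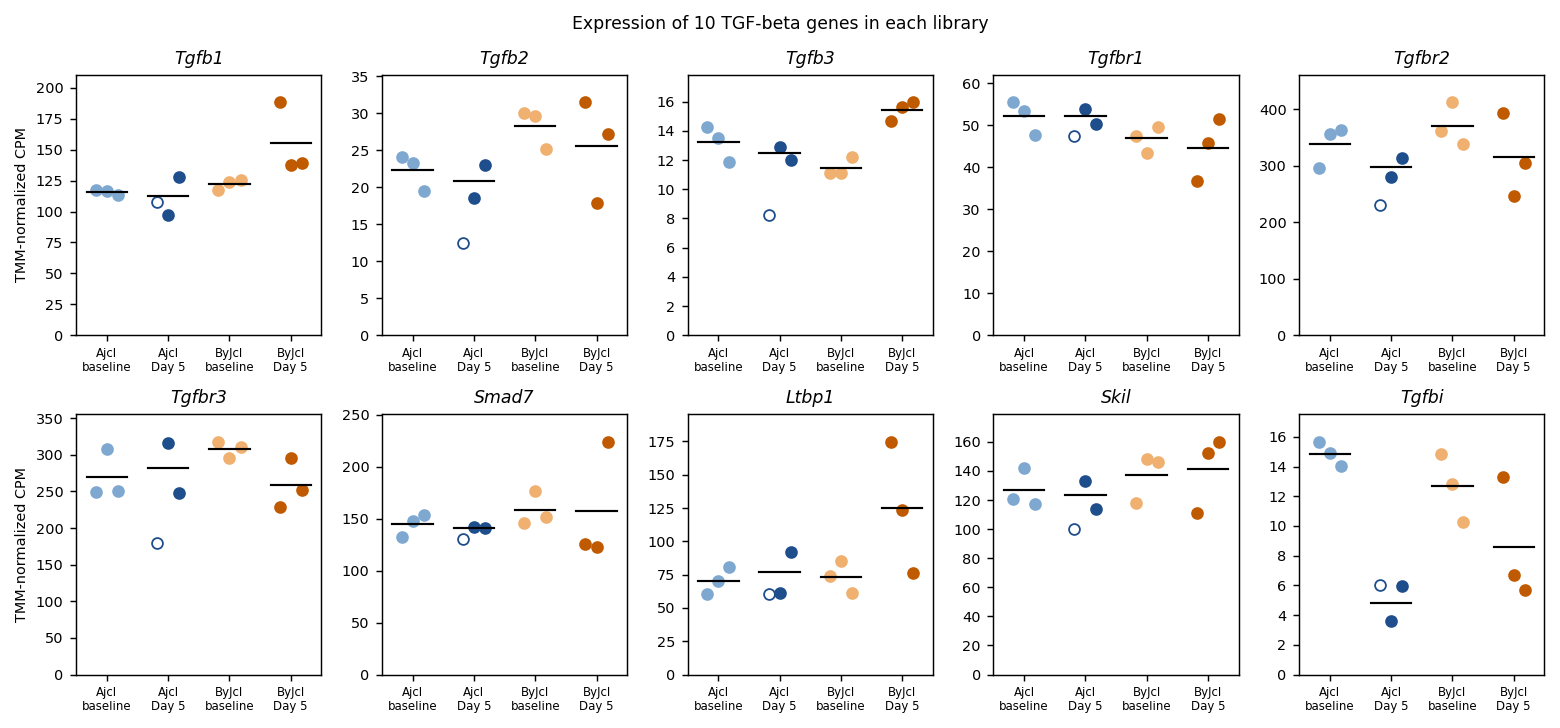
TMM-normalized CPM of each gene (y axes, each starting at 0) in every library, by group (x axes). Points are libraries, the open point is Ajcl Day 5 replicate 1, and bars are group means without it. Tgfbi was at 14.0 to 15.7 CPM in the Ajcl baseline libraries and at 3.62 to 6.05 CPM in those of Day 5.

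The levels can be compared between genes only after division by length, here CPM per kb of all annotated exon sequence. On this scale the co-receptor Tgfbr3 and the type II receptor Tgfbr2 had the highest group means, from 37.8 to 45.0 CPM per kb for Tgfbr3 and from 33.8 to 42.1 CPM per kb for Tgfbr2. Their library ranges overlapped (33.5 to 46.4 and 28.1 to 46.9 CPM per kb over 11 libraries), so the order of these neighbours is not resolved. Smad7 followed at 25.8 to 47.2 CPM per kb and Tgfb1 at 19.1 to 37.0 CPM per kb, and their ranges overlapped with each other and with those of both receptors. Skil, the gene of the SMAD co-repressor SnoN, had a median of 13.2 CPM per kb, with every library below those of Tgfb1 and above those of Tgfbr1, the type I receptor, at 5.55 to 8.38 CPM per kb. Ltbp1 ranged from 5.67 to 16.3 CPM per kb and so overlapped both Skil and Tgfbr1. Tgfb2, Tgfbi and Tgfb3 were lowest, at medians of 3.86, 3.41 and 2.47 CPM per kb. When length was taken as the longest transcript instead, Tgfb1 moved from the fourth place to the first or the second in each group, at 43.7 to 60.3 CPM per kb, because its longest transcript has 2573 bases against 5083 bases of merged exons.

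**Figure D2:**
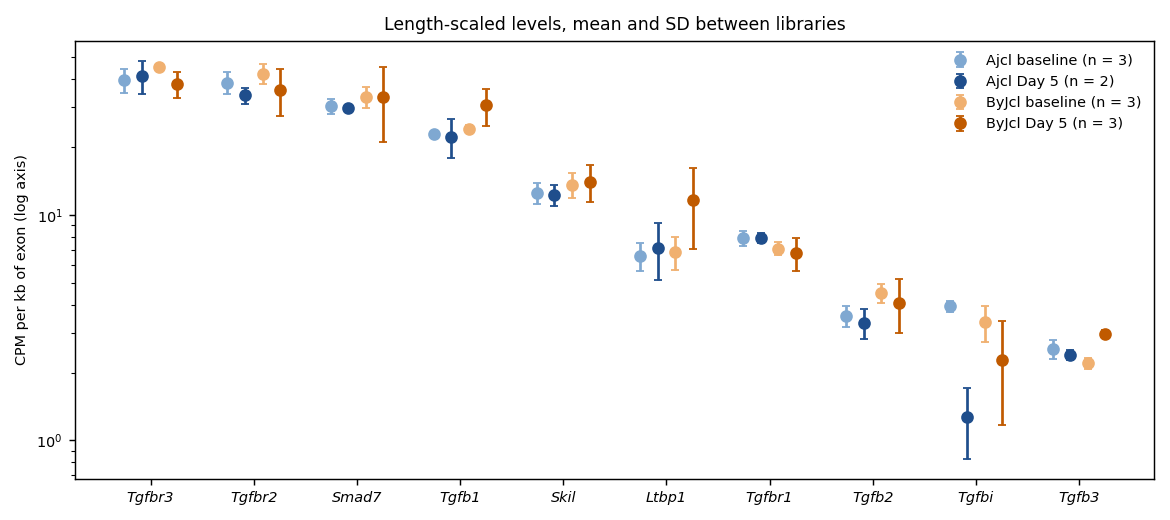
Group means of CPM per kb of exon (log y axis) for each gene, ordered by mean level. Points are the 4 groups and error bars the SD between libraries, with 3 libraries per group and 2 for Ajcl Day 5. The upper genes stay between 22.1 and 45.0 CPM per kb, and Tgfbi in Ajcl at Day 5 is the lowest point at 1.27 CPM per kb.

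Tgfbi encodes a secreted matrix protein that binds integrins and collagens and was named for its induction by TGF-beta. In the mouse genome GRCm39 it lies on chromosome 13 from 56757336 to 56787375. In Ajcl, the 3 baseline libraries held 15.7, 14.9 and 14.0 CPM. The Day 5 libraries held 3.62 and 5.98 CPM, and the library of reduced purity held 6.05 CPM. All Ajcl Day 5 libraries were therefore below all Ajcl baseline libraries, with the counts behind these values running from 164 to 707 reads. Without the library of reduced purity, that is with 2 Day 5 against 3 baseline libraries, 12.5% of all genes tested were entirely lower at Day 5 in Ajcl. In ByJcl, the baseline libraries held 14.9, 12.9 and 10.3 CPM, and the Day 5 libraries 13.3, 6.69 and 5.69 CPM. ByJcl Day 5 replicate 1 was within the baseline range, and the other two were below it.

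Averaged over both substrains, a comparison added after these values were seen, the log2 fold change of Tgfbi at Day 5 was -1.10 (SE 0.23, 95% confidence interval -1.61 to -0.59, edgeR adjusted p = 0.0132). In that comparison 10.4% of all genes were called, and 4.15% of all genes were called lower. The call held with each library left out in turn, with edgeR adjusted p from 0.00145 to 0.0481, the highest without Ajcl Day 5 replicate 2. Within Ajcl alone the log2 fold change was -1.61 (SE 0.36), which missed the threshold in edgeR (adjusted p = 0.113) and passed it in DESeq2 (adjusted p = 0.000414). Within ByJcl it was -0.58 (SE 0.30, edgeR adjusted p = 0.242). Without ByJcl Day 5 replicate 1 it was -1.03 and passed (edgeR adjusted p = 0.0239), and without replicates 2 and 3 in turn it was -0.43 and -0.34 (edgeR adjusted p = 0.521 and 0.507). The difference between the 2 substrains' responses was 1.03 on the log2 scale (SE 0.46), with an unadjusted p of 0.0445 and an edgeR adjusted p of 0.621, and it was 0.59 without ByJcl Day 5 replicate 1. At Day 5 Tgfbi was 1.78-fold higher in ByJcl than in Ajcl (log2 fold change 0.83, SE 0.35, edgeR adjusted p = 0.326), and the difference was 0.36 without ByJcl Day 5 replicate 1, 0.51 without Ajcl Day 5 replicate 2 and 1.26 without Ajcl Day 5 replicate 3.

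Macrophages are a known source of Tgfbi. The 9 macrophage and monocyte markers summed to 43.0 to 64.8 CPM in Ajcl at baseline and 34.2 to 71.4 CPM at Day 5, and to 71.2 to 119 CPM and 75.3 to 138 CPM in ByJcl. The highest sum, 138 CPM, was in ByJcl Day 5 replicate 1, the treated library with the highest Tgfbi. The next highest, 119 CPM, was in ByJcl baseline replicate 3, which had the lowest Tgfbi of its group (10.3 CPM). The highest Ajcl sum, 71.4 CPM, was in Day 5 replicate 3, with Tgfbi at 5.98 CPM. Ajcl Day 5 replicate 2 had a sum of 34.2 CPM and Tgfbi at 3.62 CPM. Within groups, the sums followed the order of Tgfbi in ByJcl at Day 5 and in Ajcl at baseline (64.8, 47.6 and 43.0 CPM). They ran in the reverse order in ByJcl at baseline. No macrophage marker was below 1 CPM in all libraries, and the part of these cells in the Tgfbi values was not tested.

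Upstream sequences from the RefSeq promoter table were read for 6 of the 10 genes, in 8 windows of 250 bases before a transcript start. Each was placed by an exact and single match in GRCm39. They are shown for Tgfbi, the gene that fell, for Ltbp1, the gene with the largest upward difference in ByJcl, and for Tgfb2, whose main start carries a SMAD motif. Each is printed 5′ to 3′ on the strand of its gene and stops before the annotated gene start. The Tgfbi stretch is chr13:56757149-56757335 on the plus strand, the Ltbp1 stretch chr17:75312274-75312518 on the plus strand, and the Tgfb2 stretch chr1:186438295-186438436 on the minus strand. Capitals mark the SMAD binding motif CAGACA.
Tgfbi: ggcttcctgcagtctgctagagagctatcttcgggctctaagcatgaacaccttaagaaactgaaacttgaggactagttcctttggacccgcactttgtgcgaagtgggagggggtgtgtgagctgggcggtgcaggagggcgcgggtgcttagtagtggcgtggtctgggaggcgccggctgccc
Ltbp1: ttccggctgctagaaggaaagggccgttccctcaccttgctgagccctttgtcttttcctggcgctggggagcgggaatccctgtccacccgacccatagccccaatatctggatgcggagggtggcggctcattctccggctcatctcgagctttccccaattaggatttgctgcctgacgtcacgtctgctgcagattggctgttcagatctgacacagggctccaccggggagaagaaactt
Tgfb2: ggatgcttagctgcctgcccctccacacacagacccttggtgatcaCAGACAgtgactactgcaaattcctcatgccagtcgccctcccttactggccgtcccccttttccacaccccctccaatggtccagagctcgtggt
On either strand, CAGACA occurs in 17.1% of 32851 promoter windows of this length, and the AP-1 motif TGANTCA in 6.75%. Among the 8 windows CAGACA was found in that of Tgfb2, at 204 to 199 bases before the RefSeq start, which lies inside the annotated gene and downstream of the end of the printed stretch, and in windows of a second, internal start of Tgfbr1 (1 match) and of Ltbp1 (2 matches on the opposite strand). The windows of Tgfbi, Tgfb1 and Tgfbr2 and the first starts of Ltbp1 and Tgfbr1 held neither motif. TGANTCA was in none of the 8. These matches describe letters only, and no binding was measured.

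Ltbp1 encodes a large matrix protein that binds latent TGF-beta and is required for its storage (chromosome 17 from 75312519 to 75699507). In treated ByJcl it varied widely, with 175, 124 and 76.5 CPM in the 3 Day 5 libraries. The ByJcl baseline libraries held 73.7, 85.5 and 61.2 CPM. Replicates 1 and 2 were above every other library of the series, and replicate 3 lay within the baseline range. In Ajcl, the baseline libraries held 60.8, 70.05 and 80.9 CPM and those of Day 5 held 61.5 and 92.0 CPM, with 60.3 CPM in the library of reduced purity. The log2 fold change at Day 5 was 0.75 in ByJcl (SE 0.26, 95% confidence interval 0.18 to 1.32, edgeR adjusted p = 0.0897) and 0.14 in Ajcl (SE 0.29, edgeR adjusted p = 0.920). Leaving out ByJcl Day 5 replicate 3 raised the ByJcl value to 1.02 and took it past the threshold (edgeR adjusted p = 0.0192), as did DESeq2 with all 11 libraries (adjusted p = 0.0271). Without replicate 1 it was 0.44. The difference between substrains at Day 5 was 0.70 (SE 0.29, edgeR adjusted p = 0.326), and it was 0.38 without ByJcl Day 5 replicate 1, 0.44 without Ajcl Day 5 replicate 2 and 1.04 without Ajcl Day 5 replicate 3.

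Of the ligands, Tgfb1 (chromosome 7 from 25386390 to 25404506) was the most abundant. At baseline the libraries of both substrains lay within a narrow band, 118, 117 and 113 CPM in Ajcl and 117, 124 and 126 CPM in ByJcl. At Day 5 the Ajcl libraries held 96.8 and 128 CPM, and 108 CPM in the library of reduced purity. In ByJcl the Day 5 libraries held 188, 138 and 139 CPM, each above every other library of the series. At Day 5 16.6% of all genes had ByJcl libraries entirely above those of Ajcl. The log2 fold change at Day 5 was 0.33 in ByJcl (SE 0.14, edgeR adjusted p = 0.150), and between substrains at Day 5 it was 0.46 (SE 0.15, edgeR adjusted p = 0.243). The first was 0.18 without ByJcl Day 5 replicate 1, and the second 0.27 without Ajcl Day 5 replicate 2, 0.30 without ByJcl Day 5 replicate 1 and 0.70 without Ajcl Day 5 replicate 3. With all 11 libraries the unadjusted p-values were 0.0343 and 0.0120, and in these comparisons 26.8% and 14.0% of all genes were below 0.05 before adjustment.

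Tgfb3 (chromosome 12 from 86102756 to 86126301) was the ligand with the lowest level. Its ByJcl libraries held 11.1, 11.1 and 12.2 CPM at baseline and 14.7, 15.6 and 15.9 CPM at Day 5. These groups did not overlap, a pattern that 33.1% of all genes showed in one direction or the other. The log2 fold change was 0.41 (SE 0.13, 95% confidence interval 0.13 to 0.69). It missed the threshold in edgeR (adjusted p = 0.0645), passed it in DESeq2 (adjusted p = 0.0140), and passed it in edgeR when genes were required to reach 1 CPM in 3 libraries (adjusted p = 0.0489). In Ajcl, the baseline libraries held 14.3, 13.5 and 11.8 CPM and those of Day 5 held 12.9 and 12.0 CPM, for a log2 fold change of -0.08 (SE 0.14, edgeR adjusted p = 0.911). The library of reduced purity was lower, at 8.26 CPM. The difference between the responses was 0.49 (SE 0.19, edgeR adjusted p = 0.620). Tgfb3 overlaps Ttll5 on the opposite strand over 5912 bases, and the strand setting of the counting is not given in the sources used here, so part of its reads may belong to Ttll5.

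Tgfb2 (chromosome 1 from 186354985 to 186438294) held 24.1, 23.2 and 19.5 CPM in Ajcl and 30.0, 29.6 and 25.1 CPM in ByJcl at baseline. The substrains did not overlap, which 7.86% of all genes showed with ByJcl higher. Its log2 fold change between substrains at baseline was 0.37 (SE 0.19, edgeR adjusted p = 0.617). At Day 5 the groups overlapped, with 18.6 and 23.0 CPM in Ajcl and 31.4, 17.9 and 27.2 CPM in ByJcl. Averaged over both times, also a comparison added after values were seen, Tgfb2 was 1.26-fold and Tgfb1 1.22-fold higher in ByJcl. Neither passed the test (edgeR adjusted p = 0.301 and 0.223), and 0.565% of all genes did.

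Within each library the ligands can be compared with one another without scaling between libraries. Tgfb1 made up 78.9% of the summed ligand level per kb in Ajcl and 78.1% in ByJcl at baseline, and 79.3% and 81.2% at Day 5. The share of Tgfb2 in ByJcl was 14.7% at baseline and 10.8% at Day 5, a difference of -3.90 percentage points with no overlap (exact two-sided permutation p = 0.1, the smallest that 3 against 3 libraries allow). The share of Tgfb3 at baseline, 8.20% to 9.24% in Ajcl and 6.86% to 7.56% in ByJcl, did not overlap either, with the same p. With 12 such comparisons the adjusted p was 0.6 for each, in a design that cannot reach 0.05. These shares depend on the length used. With the longest transcript those of Tgfb2 in ByJcl were 9.58% and 6.95%, and those of Tgfb1 85.5% and 87.6%. The library of reduced purity had the highest Tgfb1 share of the series, 85.6%.

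**Figure D3:**
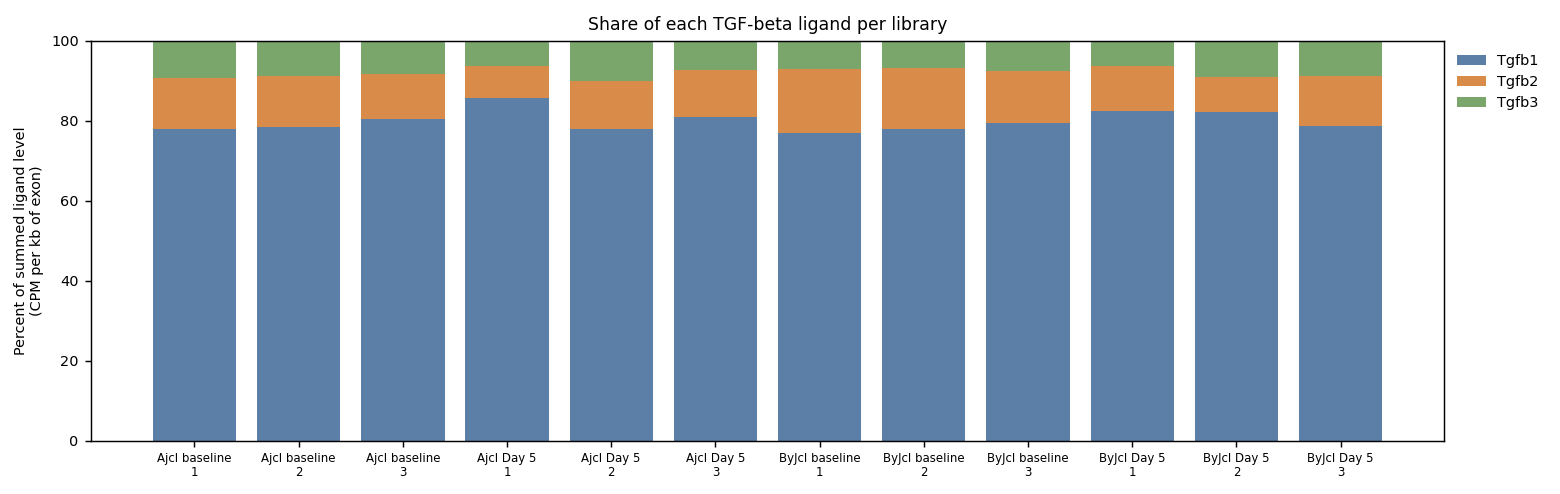
Percent of the summed Tgfb1, Tgfb2 and Tgfb3 level (CPM per kb of exon, y axis) in each of the 12 libraries (x axis), stacked by ligand. Tgfb1 takes 76.9% to 85.6% of each bar, with the largest share in Ajcl Day 5 replicate 1.

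No receptor transcript passed the test or separated the groups in any comparison. Tgfbr1 (chromosome 4 from 47353134 to 47414931), the signalling kinase, ranged from 36.8 to 55.5 CPM over the 12 libraries. Its log2 fold change at Day 5 was 0.01 in Ajcl (95% confidence interval -0.31 to 0.33) and -0.08 in ByJcl (-0.37 to 0.21). Tgfbr2 (chromosome 9 from 115913361 to 116004800), the ligand-binding kinase, averaged 339 ± 37.8 CPM in Ajcl and 370 ± 37.8 CPM in ByJcl at baseline (SD, n = 3 each). At Day 5 it held 280 and 315 CPM in Ajcl and 393, 247 and 305 CPM in ByJcl, so that the groups overlapped. The log2 fold changes were -0.17 (95% confidence interval -0.57 to 0.22) and -0.25 (-0.60 to 0.10). Tgfbr3 (chromosome 5 from 107249402 to 107437623) held 318, 295 and 311 CPM at baseline and 229, 296 and 252 CPM at Day 5 in ByJcl, a log2 fold change of -0.26 (SE 0.14, edgeR adjusted p = 0.246). In Ajcl it was 0.07 (SE 0.15, edgeR adjusted p = 0.919), and its Day 5 libraries ranged from 180 CPM in the library of reduced purity to 316 CPM. Each of these intervals still allows a change of some size, and a missed threshold does not show that a level was unchanged.

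For the feedback genes the fitted differences at Day 5 were near 0 in both substrains. SMAD7 blocks the type I receptor and is itself induced by the signal. Smad7, on chromosome 18, held 132, 148 and 153 CPM in Ajcl and 146, 177 and 152 CPM in ByJcl at baseline. The Ajcl Day 5 libraries held 141 and 141 CPM, and the ByJcl Day 5 libraries 125, 123 and 224 CPM. Replicate 3 of ByJcl was the highest of the series, and the other two were the lowest. Its log2 fold change was -0.02 in Ajcl (95% confidence interval -0.52 to 0.48) and -0.02 in ByJcl (-0.47 to 0.43), and the ByJcl value was -0.35 without replicate 3. Skil (chromosome 3 from 31148816 to 31176740) held 118, 148 and 146 CPM at baseline and 111, 153 and 160 CPM at Day 5 in ByJcl. Its log2 fold change there was 0.03 (95% confidence interval -0.32 to 0.37), and in Ajcl it was -0.03 (-0.41 to 0.36).

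**Figure D4:**
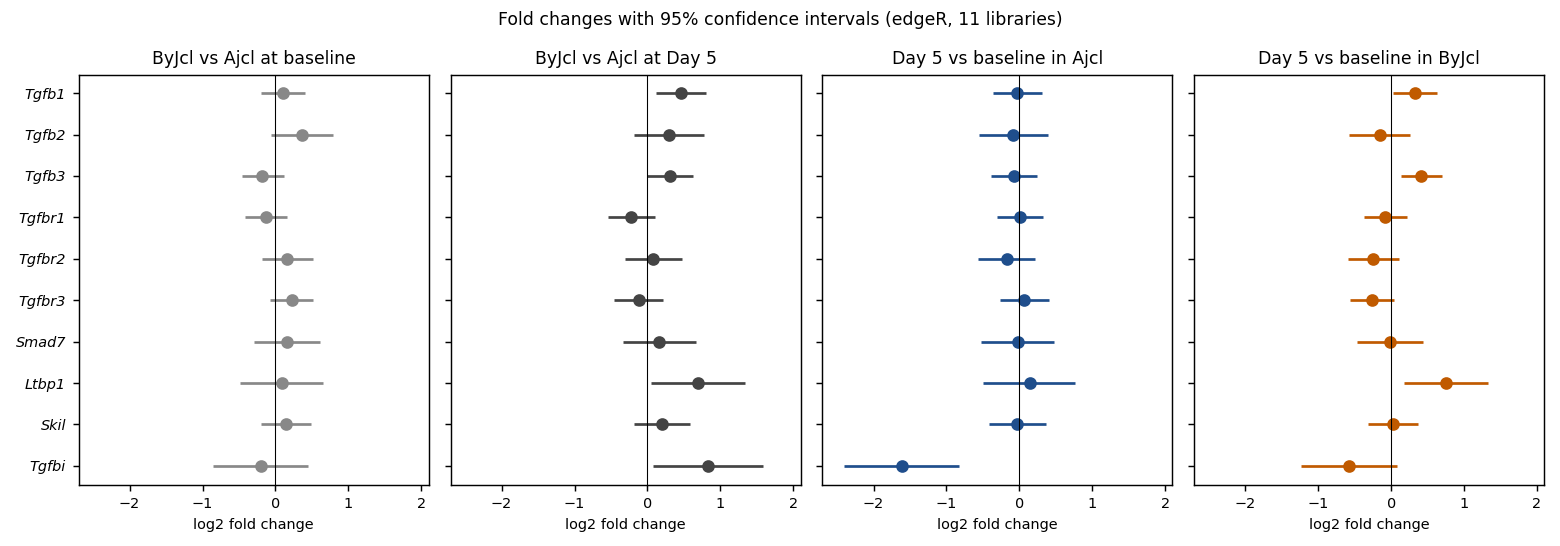
Log2 fold changes (x axes) of the 10 genes in 4 comparisons, with 95% confidence intervals as lines, from edgeR over 11 libraries. Before any adjustment for the number of genes, the intervals that do not cross 0 are those of Tgfbi in Ajcl (-2.40 to -0.83), of Tgfb1, Tgfb3 and Ltbp1 in ByJcl, and of Tgfb1, Ltbp1 and Tgfbi between substrains at Day 5.

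Counted over all 10 genes, 0 were called at baseline between substrains (lowest edgeR adjusted p = 0.617), where 0.159% of all genes were, and none was below 0.05 before adjustment, where 8.34% were. At Day 5 between substrains 0 were called, against 0.165% of all genes, with 3 at an unadjusted p below 0.05 (Tgfb1, Ltbp1 and Tgfbi) against 14.0% of all genes. At Day 5 against baseline 0 were called in Ajcl, against 0.312% of all genes, with Tgfbi alone below 0.05 unadjusted (9.80% of all genes). In ByJcl 0 were called, against 10.6% of all genes, with Tgfb1, Tgfb3 and Ltbp1 below 0.05 unadjusted, against 26.8% of all genes. The interaction of substrain and treatment called none of the 10 and none of the 17002 genes in edgeR (0.00%), with Tgfb3 and Tgfbi and 1363 genes in all (8.02%) at an unadjusted p below 0.05. DESeq2 called 22 genes there (0.129%). DESeq2 called 1 of the 10 in Ajcl (Tgfbi) and 2 in ByJcl (Tgfb3 and Ltbp1), where it called 1.77% and 15.8% of all genes. The median log2 fold change of the 10 at Day 5 was -0.03 in Ajcl and -0.05 in ByJcl, against -0.01 and 0.01 over all genes. The Day 5 comparisons between and within substrains share libraries and are not independent of one another.

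The other genes of the pathway were read from 5 lists with 86 genes, of which 84 were tested. At Day 5 in ByJcl 19 of them rose and 7 fell (31.0% called), against 5.75% of all genes that rose and 4.83% that fell. In Ajcl 1 rose, against 0.306% of all genes (edgeR, adjusted p below 0.05). The interaction called none of the 84, so a difference between the substrains' responses was not shown for any of them. At baseline none was called between substrains. At Day 5 edgeR called 2 of the 84 higher in ByJcl than in Ajcl (2.38%, against 0.165% of all genes called), both in the list of genes induced in culture, where DESeq2 called 7 higher and 1 lower and edgeR with all 12 libraries called 1 higher.

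The largest share was among the 20 genes that TGF-beta induces in culture. In ByJcl at Day 5, 11 of them rose and 1 fell, with a median log2 fold change of 0.93 against 0.01 over all genes. Tagln, an actin-binding protein of contractile cells, rose by 1.31 on the log2 scale (edgeR adjusted p = 0.00163), from 104 to 158 CPM to 287 to 354 CPM. Vcan, a matrix proteoglycan, rose by 2.98 from 0.377 ± 0.0486 to 3.01 ± 1.39 CPM (SD, n = 3 each), and Timp1, an inhibitor of matrix metalloproteinases, by 2.47. Col4a2, a chain of basement membrane collagen, rose by 1.23. Col1a2, a chain of fibrillar collagen, fell by 2.16 on the log2 scale, from 427 to 514 CPM to 81.2 to 146 CPM. Without ByJcl Day 5 replicate 1 the count was 13 higher and 1 lower, and with all 12 libraries 9 and 1.

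In Ajcl edgeR called none of these 20 genes, and their median was 0.28. DESeq2 called 1 higher and 1 lower. The gene with the smallest p was Col1a2 (log2 fold change -1.15, adjusted p = 0.136 in edgeR and 0.00141 in DESeq2), followed by Vcan (2.47, adjusted p = 0.136 in edgeR and 0.00766 in DESeq2). At Day 5, Tagln was higher in ByJcl than in Ajcl (log2 fold change 1.15, SE 0.18, edgeR adjusted p = 0.0436), where 0.135% of all genes were called higher. This call did not hold with all 12 libraries (0.93, edgeR adjusted p = 0.0599), without Ajcl Day 5 replicate 2 (1.02, edgeR adjusted p = 0.737), or without replicate 1, 2 or 3 of ByJcl Day 5 (1.18, 1.05 and 1.21, edgeR adjusted p = 0.0584, 0.122 and 0.0666). Tagln and Acta2 are also smooth muscle markers. The 6 markers of that cell type summed to 559 to 587 CPM at baseline and 692 to 847 CPM at Day 5 in ByJcl, and to 535 to 604 CPM and 519 to 551 CPM in Ajcl. Tagln is itself part of this sum and was the 1 marker of the 6 called in ByJcl, and the median log2 fold change of the 6 was 0.11. The 9 immediate early genes, which respond to tissue handling, summed to 4864 to 5960 CPM in ByJcl at Day 5 against 2858 to 4308 CPM at baseline, and to 3558 to 5202 CPM against 2806 to 3563 CPM in Ajcl. Of these 9, edgeR called 4 higher in ByJcl, where 5.75% of all genes rose, and 0 in Ajcl. Their median log2 fold changes were 0.72 and 0.50. The 6 parietal epithelium markers summed to 243 to 272 CPM at baseline and 320 to 462 CPM at Day 5 in ByJcl, with 2 called higher and 1 lower, and to 201 to 231 CPM and 244 to 278 CPM in Ajcl. The part of these genes in the list's result was not tested.

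Among 20 SMADs and SMAD regulators, Tgif1, a SMAD co-repressor, rose in ByJcl (log2 fold change 1.01, edgeR adjusted p = 0.0215), and Pmepa1, which sequesters SMAD2 and SMAD3, fell by 0.81 (edgeR adjusted p = 0.0148). The other 18 did not pass, so that 2 of 20 were called against 10.6% of all genes, and the median of the list was 0.00. Of 17 genes of the latent complex and its activation, Itgb5, an integrin subunit that pairs with alpha v, fell by 1.00 from 835 ± 55.7 to 421 ± 34.9 CPM (SD, n = 3 each). Ltbp4, a relative of Ltbp1, fell by 0.76 (edgeR adjusted p = 0.0157). These 2 of 17 also stand against 10.6% of all genes called. Without ByJcl Day 5 replicate 1 the count for that list went from 2 lower to 4 lower and 1 higher.

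Among 12 tested receptors and co-receptors of the wider family, Lrg1 and Cd109 rose and Acvr2b and Acvr1b fell in ByJcl, where 5.75% of all genes rose and 4.83% fell. LRG1, a secreted glycoprotein that modulates TGF-beta signalling in endothelium, was the gene of these lists that rose in Ajcl too, where 0.306% of all genes did (log2 fold change 2.56, edgeR adjusted p = 0.0492, against 2.60 and 0.00492 in ByJcl). Its means were 2.48 ± 0.527 CPM at baseline (SD, n = 3) and 14.5 ± 6.11 CPM at Day 5 (SD, n = 2) in Ajcl. CD109, a co-receptor that dampens the signal, rose by 2.11 in ByJcl (edgeR adjusted p = 0.00651), and was at 1.00 in Ajcl without passing (edgeR adjusted p = 0.423). Acvr2b and Acvr1b, activin receptors, fell by 0.95 and 0.57.

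Of 15 tested BMP, activin and GDF ligands and antagonists, 5 rose and 1 fell in ByJcl at Day 5, against 5.75% and 4.83% of all genes. Those that rose were Inhbb, an activin subunit (log2 fold change 2.45), Gdf15, a stress-induced ligand (2.27), the activin antagonist Fst (1.85), the BMP antagonist Nog (1.37) and the BMP-binding Bmper (0.83). Bmp7, which counters TGF-beta in the kidney, fell by 0.45 (edgeR adjusted p = 0.0484). With all 12 libraries, or without ByJcl Day 5 replicate 1, the call of 1 gene lower in this list was lost. In Ajcl, Gdf15 was at 2.02 (adjusted p = 0.125 in edgeR and 0.000784 in DESeq2) and Nog at 1.21 (edgeR adjusted p = 0.298).

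**Figure D5:**
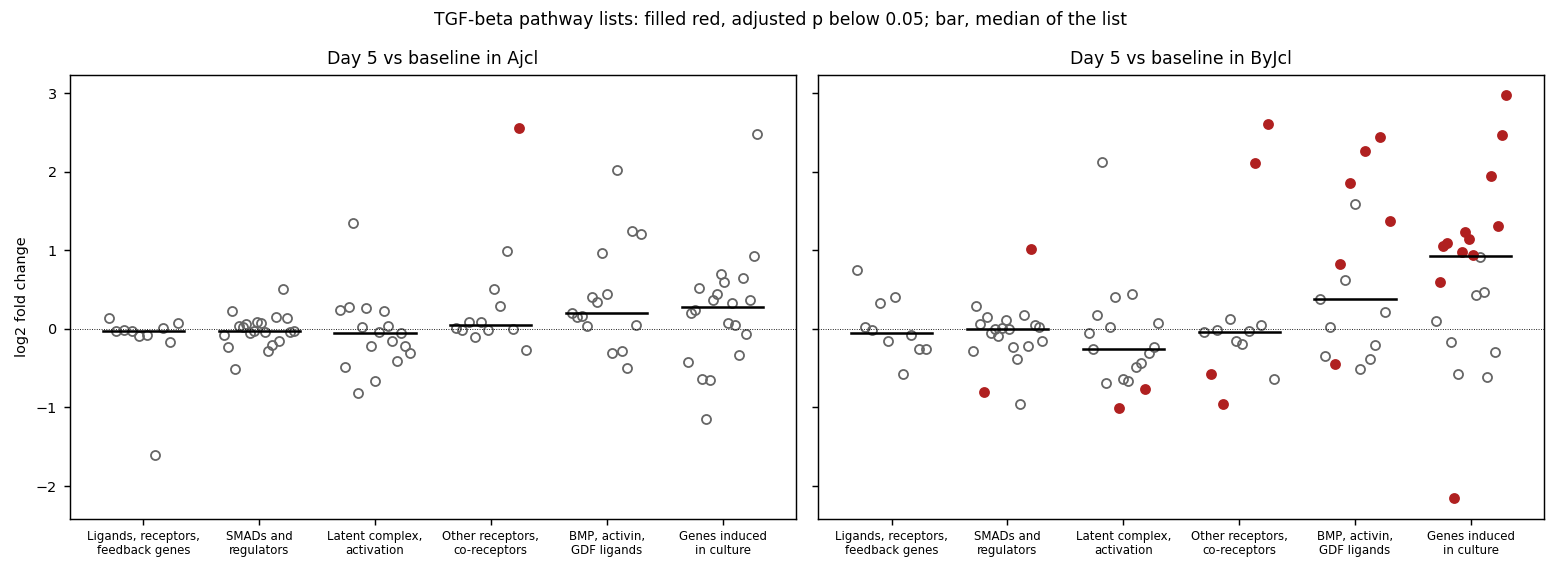
Log2 fold changes at Day 5 against baseline (y axis) in Ajcl (left) and ByJcl (right) for the 10 genes and the 5 pathway lists (x axis). Each point is a gene, filled red where the edgeR adjusted p was below 0.05, and the bar is the median, which for the genes induced in culture was 0.28 in Ajcl and 0.93 in ByJcl.

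For each of the 10 genes the transcript with the most similar profile was sought among 11371 genes with a mean of at least 5 CPM, by Pearson's r of log2(CPM + 1) over the 11 libraries. The best match reached r from 0.904 to 0.983, and as the highest of many values it is a description only. Tgfb1 was closest to Plac8 (r = 0.983, Spearman's rho = 0.964, r = 0.891 without the 2 libraries farthest from the Tgfb1 median), Tgfb2 to Slc27a3 (0.943) and Tgfb3 to Ndfip2 (0.945). Tgfbr1 was closest to Nap1l3 (0.930), Tgfbr2 to Ttyh3 (0.953) and Tgfbr3 to Zscan12 (0.912). Ltbp1 was closest to Dbnl, with r falling from 0.946 to 0.711 without ByJcl Day 5 replicates 1 and 2, so that this match rests largely on those libraries. Smad7 was closest to Mycn (0.904), Skil to Ate1 (0.923), and Tgfbi to Chrm3 (0.941). Among the 10 genes themselves, the strongest relations over the same libraries were those of Ltbp1 with Tgfbr1 (r = -0.86, rho = -0.764, r = -0.714 without the 2 libraries farthest from the Tgfbr1 median) and with Tgfb1 (r = 0.84, rho = 0.573, r = 0.525 without 2 libraries). These libraries belong to 4 groups that differ in treatment and share depth and scaling, which every such value includes.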

How the data were processed

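Poly(A)-selected, strand-specific paired-end RNA-seq of isolated glomeruli was analysed in 12 libraries, 3 in each of 4 groups of mice. The authors deposited raw counts per gene symbol, not normalized, made with Trimmomatic (trimming), STAR (alignment, GRCm39) and featureCounts (counting). Annotation and strand setting are not given in the sources used here. Most counts from 1 to 49 were even (77.08% to 82.85%), so both reads of a pair were probably counted. Counts were fitted with edgeR 4.0.16 (R 4.3.3; quasi-likelihood test, TMM, filterByExpr, 11 libraries, Benjamini-Hochberg adjustment). DESeq2 1.42.0 was an alternative, with RLE size factors, other filters, the replicate number as a block, halved counts, the libraries of a comparison alone, all 12 libraries and leaving out each library. The edgeR fold changes were checked on simulated counts with known changes in ByJcl at Day 5, with no condition on the calls. CPM use TMM factors of 12 libraries. P-values measure the spread between libraries, and no label names the animals behind them. Coordinates and lengths come from GENCODE vM39. All 10 genes, in each comparison, and from each list the genes called (at most 6 of smallest p, at least 2) are named. The genes and lists were chosen with earlier results of these data known. A gene counted in the list totals is not reported here on its own.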

Additional observations from a re-analysis of the deposited data

How the results depend on the processing

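The Day 5 fall of Tgfbi averaged over both substrains kept its direction and its call in all 7 other settings and all 11 fits with a library left out. Over all genes, DESeq2 called 101 (baseline), 535 (Day 5), 301 (Ajcl at Day 5 against baseline), 22 (interaction) and 677 (substrain, mean of both times). Without a filter on low counts 56 (Day 5) and 99 (Ajcl) were called, and with the libraries of the comparison alone 15 (baseline), 6 (Day 5) and 33 (Ajcl). With all 12 libraries 72 genes (Day 5) and 1197 (ByJcl) were called. Of the 10 genes, DESeq2 called 1 in Ajcl and 2 in ByJcl, and the filter of at least 1 CPM in 3 libraries called 1 in ByJcl.

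With all 12 libraries the sign turned for Tgfbr3 (Day 5 between substrains 0.06, Ajcl -0.12), Tgfbr1 (Ajcl -0.04), Tgfb2 and Tgfbr2 (interaction 0.16 and 0.06), Skil (mean of both substrains -0.04) and the Day 5 differences of ligand share, to -0.225 for Tgfb1, 0.134 for Tgfb2 and 0.0919 percentage points for Tgfb3. Between groups, libraries of the same replicate number had correlations from -0.306 to 0.405 in their deviations from the group means. Libraries of different numbers were not correlated for comparison, so whether the numbers pair the libraries was not tested. Tagln at Day 5 between substrains was not called with the replicate block (log2 fold change 1.17, edgeR adjusted p = 0.117). It was not called with the libraries of the comparison alone either (1.15, edgeR adjusted p = 0.202). The replicate block left 26 genes called in Ajcl, called none of the 10 within a substrain, and turned the sign for Tgfb1 (Ajcl 0.00), Tgfbr1 (Ajcl -0.02) and Skil (mean -0.05). None of these values passed the test, and the cause was not tested.

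Leaving out 1 library at a time gave 12 to 27 genes called at baseline, 9 to 218 at Day 5, 11 to 180 in Ajcl, 680 to 1611 in ByJcl, 0 to 5 for the interaction, 531 to 1816 for the mean of both substrains and 34 to 280 for the mean of both times. The extremes at Day 5 and for the mean of both times came without Ajcl Day 5 replicate 2 (lowest) and replicate 3 (highest). In Ajcl the count was 180 without Ajcl Day 5 replicate 2 and 11 without replicate 3, in ByJcl it was lowest without ByJcl Day 5 replicate 2, and for the mean of both substrains without Ajcl Day 5 replicate 3. Of the 10 genes, 0 to 1 were called in ByJcl and 1 to 2 for the mean of both substrains, the added gene being Tgfbi or Ltbp1. The log2 fold changes that turned sign ranged at baseline from -0.04 to 0.20 for Ltbp1, and at Day 5 between substrains from -0.11 to 0.23 for Tgfbr2, -0.27 to 0.06 for Tgfbr3 and -0.19 to 0.31 for Smad7. In Ajcl they ranged from -0.27 to 0.15 for Tgfb1, -0.28 to 0.06 for Tgfb2, -0.06 to 0.05 for Tgfbr1, -0.11 to 0.21 for Tgfbr3, -0.09 to 0.01 for Smad7, -0.21 to 0.39 for Ltbp1 and -0.14 to 0.08 for Skil. In ByJcl they ranged from -0.32 to 0.04 for Tgfb2, -0.18 to 0.05 for Tgfbr1, -0.35 to 0.13 for Smad7 and -0.07 to 0.18 for Skil. For the interaction they ranged from -0.23 to 0.13 for Tgfb2, -0.18 to 0.05 for Tgfbr1, -0.24 to 0.07 for Tgfbr2, -0.32 to 0.17 for Smad7 and -0.05 to 0.22 for Skil. For the mean of both substrains they ranged from -0.09 to 0.03 for Tgfbr1, -0.19 to 0.06 for Smad7 and -0.05 to 0.07 for Skil, and for the mean of both times from -0.03 to 0.24 for Smad7 and -0.03 to 0.13 for Tgfbr3. Ligand shares turned sign for Tgfb1 at baseline (-1.47 to 0.0324 percentage points) and in Ajcl (-1.12 to 1.85), and for Tgfb3 at Day 5 (-2.03 to 0.65) and in Ajcl (-1.37 to 1.32).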
